A study of Mus musculus with 64 samples.

Results

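The 10 genes described here make up most of the mammalian circadian clock: the activators Clock and Npas2, the repressors Per1, Per2, Per3, Cry1 and Cry2, the nuclear receptors Nr1d1 and Nr1d2, and the output factor Dbp. They were picked by gene symbol, by a rule that used no measured value but with earlier results of these data known, and all 10 had a row among the 39152 genes of the deposited tables, of which 26915 had at least 1 count. All 10 also passed the filter on low counts in every comparison. The study asked whether an AAV9 vector carrying mouse Pkp2, the gene of the desmosomal protein plakophilin-2, corrects arrhythmogenic right ventricular cardiomyopathy in mice, and sequenced the RNA of 32 C57BL6 hearts by ventricle, right (RV) and left (LV), giving 64 libraries. All animals carried floxed Pkp2 alleles (Pkp2 fl/fl). The 4 cKO mice also carried the tamoxifen-activated recombinase αMyHC-Cre-ER(T2) and received the vehicle HBSS. The 8 AAV_3E13 mice and the 5 AAV_1E14 mice carried the same alleles and received AAV9:mPkp2 at 3e+13 and 1e+14 vg/kg 1 week before tamoxifen. The 6 AAV_1E14_2.5wk mice received 1e+14 vg/kg at 2.5 weeks after tamoxifen, when disease was already present. The 9 WT mice were Cre-negative littermates given HBSS. WT and AAV-treated hearts were collected at 51 weeks and cKO hearts only a few weeks after tamoxifen. Whether WT mice also received tamoxifen is not given in the sources used here, and deletion, age and time since induction cannot be told apart in any comparison with cKO. Because the αMyHC promoter is active in cardiomyocytes, other cells of these hearts keep Pkp2. Each group number is a number of separate animals, and the RV and LV libraries of an animal share its number. Animals are named by WT, cKO or AAV and their number in the labels. The hour of the day at which hearts were collected was not given in the sources used here.

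The clock is a feedback loop of transcription. CLOCK, or its close relative NPAS2, pairs with BMAL1 (gene Arntl) and activates genes that hold an E-box, among them the Per and Cry genes, whose proteins return to the nucleus and repress that activation. In a further loop the heme-binding repressors REV-ERBα (Nr1d1) and REV-ERBβ (Nr1d2) compete with the ROR activators for sites in Arntl, Clock, Npas2 and Cry1, and DBP, with its relatives TEF and HLF, activates genes that hold a D-box, such as the Per genes. In heart, as in liver, Arntl, Clock and Npas2 peak near the opposite time of day from Dbp, Nr1d1 and the Per genes, and Cry1 peaks later than Cry2. The level of a clock gene in 1 heart therefore depends on when the heart was taken, and the RV and LV of 1 animal share that time.

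Promoters were searched for the letters of these elements because they name the loop in which a member is placed. RefSeq promoters (GRCm38.p6, 300 bases each, from 250 before to 50 after the start) were found for 9 of the 10 members, all but Per2. The letters searched on both strands were CACGTG (E-box), TTATGTAA and TTACGTAA (D-box) and TAGGTCA (the core bound by ROR and REV-ERB receptors). Matches lay in 3 promoters, shown 5′ to 3′ along the gene with the match in capitals: Per1 at chr11:69098699-69098998 on the plus strand, with an E-box 166 bases before the start, Per3 at chr4:151044616-151044915 on the minus strand, with D-boxes 205 and 158 bases before it, and Cry1 at chr10:85185005-85185304 on the minus strand, with an E-box 60 bases before it.
Per1: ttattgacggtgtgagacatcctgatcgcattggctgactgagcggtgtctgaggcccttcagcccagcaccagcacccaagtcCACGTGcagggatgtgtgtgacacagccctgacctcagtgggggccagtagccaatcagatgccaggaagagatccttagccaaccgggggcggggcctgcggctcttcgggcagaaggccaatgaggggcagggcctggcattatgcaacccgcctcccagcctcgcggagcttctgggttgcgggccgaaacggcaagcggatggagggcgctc
Per3: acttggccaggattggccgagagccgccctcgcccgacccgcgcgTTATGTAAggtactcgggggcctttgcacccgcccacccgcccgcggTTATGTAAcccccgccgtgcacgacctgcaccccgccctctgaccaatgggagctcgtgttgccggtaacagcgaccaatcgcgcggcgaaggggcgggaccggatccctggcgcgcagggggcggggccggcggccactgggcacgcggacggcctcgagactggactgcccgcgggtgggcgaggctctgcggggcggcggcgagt
Cry1: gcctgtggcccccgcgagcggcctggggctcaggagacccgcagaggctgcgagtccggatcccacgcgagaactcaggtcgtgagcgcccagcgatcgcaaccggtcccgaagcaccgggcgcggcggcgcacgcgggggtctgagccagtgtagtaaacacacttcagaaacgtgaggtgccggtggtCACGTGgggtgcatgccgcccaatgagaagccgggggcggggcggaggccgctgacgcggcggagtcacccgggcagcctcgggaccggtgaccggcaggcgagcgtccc
Of 32851 mouse promoters of this length, 7.15% held CACGTG, 0.938% TTATGTAA, 0.119% TTACGTAA and 2.61% TAGGTCA. None of these letters occurred in the windows of Clock, Npas2, Cry2, Nr1d1, Nr1d2 and Dbp or of a second start of Per1, which says only that the letters are not in these windows.

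On the GRCm39 build the members are spread over 8 chromosomes. Clock lies at chr5:76342860-76452846, Npas2 at chr1:39232705-39402323, Per1 at chr11:68986035-69002300, Per2 at chr1:91343700-91387069 and Per3 at chr4:151081373-151129140. Cry1 lies at chr10:84967560-85021252, Cry2 at chr2:92233894-92264474, Nr1d1 at chr11:98658752-98666188, Nr1d2 at chr14:4230545-4266624 and Dbp at chr7:45354512-45359627. The end of Nr1d1 overlaps the antisense gene Thra, and whether the counting used the strand that the library kit marks is not given in the sources used here, so the Nr1d1 values carry that uncertainty.

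Levels between genes were compared in TPM, transcripts per 1000000 transcripts, which are scaled by transcript length. The REV-ERB genes stood highest, with a median of 179 TPM for Nr1d2 (61.8 to 245 over the 64 libraries) and 140 TPM for Nr1d1 (28.5 to 212). Dbp followed with 80.4 TPM (11.4 to 141) and Per1 with 65.1 TPM (21.5 to 137). Per3 had 41.1 TPM (19.3 to 71.2), Cry2 32.4 TPM (9.73 to 52.0), Clock 22.1 TPM (9.05 to 33.6) and Per2 18.7 TPM (5.45 to 33.8). Cry1 had 7.98 TPM (3.84 to 12.9) and Npas2, the lowest, 1.92 TPM (0.751 to 7.21). The ranges of neighbours in this order overlapped throughout, and only Npas2 and Cry1 were read from few counts, with medians of 35.5 and 80.5 counts per library against 2674 for Nr1d2. Dbp had the widest span: its highest library was 12.9 times its lowest in CPM, counts per 1000000 counts, the scale used from here on, against 7.07 times for Nr1d1, 6.41 for Per2, 5.52 for Per1, 5.16 for Npas2 and 3.38 to 4.71 for the other 5 members. CPM were computed over the counts used and scaled by trimmed mean of M-values (TMM) factors.

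**Figure D1:**
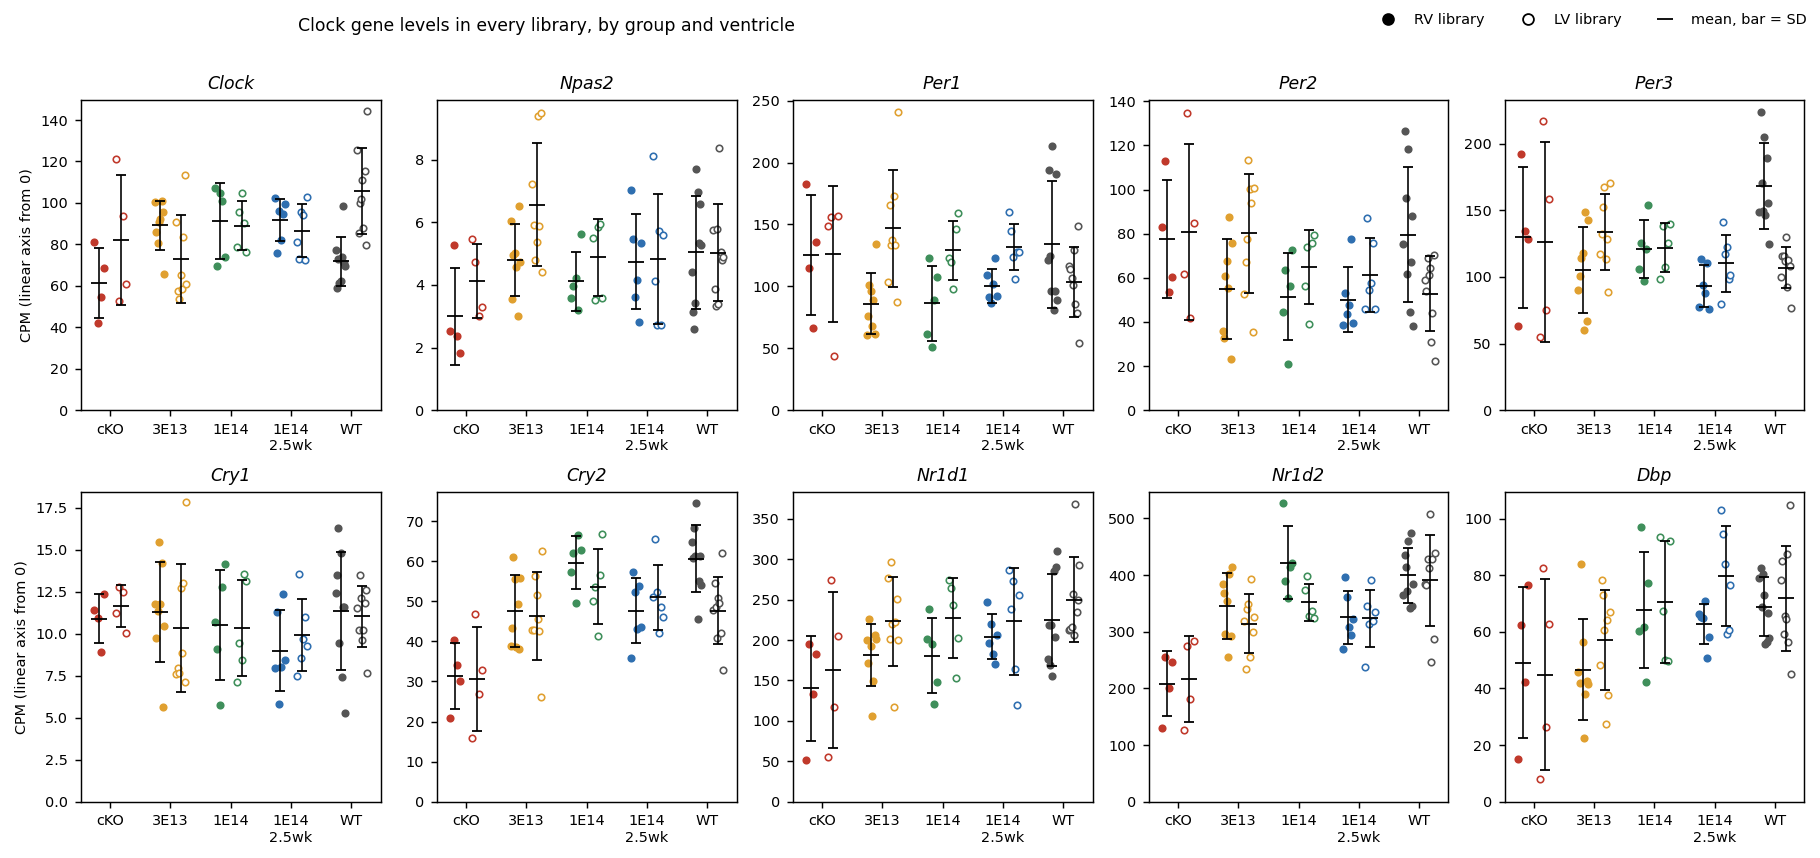
CPM of each clock gene in every library on linear axes from 0, with filled points for RV and open points for LV, by group, and the mean with its SD. The cKO group has the lowest means of Cry2 and Nr1d2 (31.4 and 208 CPM in RV), and 1 cKO animal has the lowest Dbp and Nr1d1 of all libraries (8.09 CPM in LV for Dbp, 52.0 CPM in RV for Nr1d1).

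Libraries held 7.96 to 14.55 M estimated counts (median 11.5 M), of which 16.6 to 40.2% came from 37 mitochondrial genes that were left out, so that 5.34 to 10.2 M counts were used. Pkp2 itself checked the labels: its median was 30.8 TPM in cKO RV and 47.2 in cKO LV, against 101 in WT RV and 118 in WT LV, and it was 230 and 209 TPM in AAV_3E13, 841 and 835 in AAV_1E14 and 1235 and 1398 in AAV_1E14_2.5wk, RV first. Marker genes of several cell types moved with the groups. The summed TPM of 5 cardiomyocyte markers was 5295 to 15728 in cKO RV and 5409 to 16044 in cKO LV, against 15647 to 20915 in WT RV and 17815 to 23422 in WT LV, and that of 4 macrophage markers (5 were listed) was 162 to 447 and 81.7 to 751, against 32.1 to 60.6 and 23.8 to 44.7. Fibroblast markers summed to 1366 to 3372 TPM in cKO RV, against 487 to 1039 in WT RV, but did not move alike. By edgeR, Col1a1 (log2 fold change 4.96), Postn (4.21) and Tcf21 (0.82) passed as higher, while Pdgfra (0.15) and Dcn (0.01) did not pass. In bulk tissue, fewer cells of a type and less RNA per cell cannot be told apart, and the part of the cell make-up in the clock gene differences was not tested. One WT RV library (animal WT_5819) held 469 TPM of 4 atrial markers, against a median of 3.91 in WT RV, and the RV and LV libraries of animal AAV_5814 (AAV_1E14_2.5wk) deviated from their group means with a correlation of -0.04 over all genes, the lowest of 32 animals, so results that change without either animal are given.

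In cKO hearts, Cry2 and Nr1d2 were lower than in WT in both ventricles, and no clock gene passed as higher. The repressor Cry2 had 20.8, 40.4, 34.0 and 30.2 CPM in the 4 cKO RV libraries (animals cKO_2006, cKO_2052, cKO_3213 and cKO_3217, in this order for all cKO values), against 45.6 to 74.4 CPM (median 61.3) in 9 WT RV libraries. The groups did not overlap, and the log2 fold change was -0.88 (SE 0.16, edgeR adjusted p = 0.0006). Nr1d2, the receptor REV-ERBβ, had 131, 256, 201 and 246 CPM in cKO RV, against 342 to 475 (median 384) in WT RV, again without overlap (log2 fold change -0.87, SE 0.16, edgeR adjusted p = 0.0006). Both calls held when any 1 of the 13 animals was left out. In LV, Nr1d2 had 127, 275, 181 and 284 CPM in cKO hearts, against 247 to 508 (median 412) in WT hearts, with the 2 highest cKO libraries inside the WT range (log2 fold change -0.83, SE 0.22, edgeR adjusted p = 0.0060). Cry2 had 15.8, 46.9, 26.8 and 32.9 CPM in cKO LV, against 32.8 to 62.0 (median 48.6) in WT LV, and the groups overlapped (log2 fold change -0.62, SE 0.23, edgeR adjusted p = 0.0355). This last call was lost without any 1 of 6 animals (WT_2004, cKO_2006, WT_2040, cKO_3213, cKO_3217 or WT_5819), with edgeR adjusted p up to 0.105, and on log2(TPM + 0.1) (limma adjusted p = 0.0648), with effective length as an offset (0.122) or with the animal number series as a term (0.093).

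The 2 members that passed in each ventricle compare with 42.3% of all 14150 genes tested in RV and 46.6% of 13846 in LV, and the members' share, 20%, was below both. Their median log2 fold change was -0.36 in RV and -0.31 in LV, beside 0.02 and 0.05 over all genes. The other REV-ERB gene, Nr1d1, had 52.0, 195, 133 and 183 CPM in cKO RV, against 156 to 311 (median 218) in WT RV, and 55.0, 274, 117 and 205 CPM in cKO LV, against 206 to 368 (median 234) in WT LV. Its differences of -0.61 and -0.60 on the log2 scale did not pass (edgeR adjusted p = 0.0966 and 0.118). Dbp, the D-box activator, had 15.2, 62.5, 42.3 and 76.6 CPM in cKO RV, against 55.8 to 82.5 (median 68.9) in WT RV, and 8.09, 82.4, 26.5 and 62.6 CPM in cKO LV, against 45.1 to 105 (median 65.5) in WT LV. Its log2 differences were -0.42 and -0.66 and did not pass, and cKO animals spread more widely than WT animals in both ventricles. On log2(TPM + 0.1) both genes passed in both ventricles. Nr1d1 was -0.95 in RV (limma adjusted p = 0.0239) and -0.80 in LV (0.0264), and Dbp was -0.84 in RV (0.0378) and -1.18 in LV (0.0205). With the trend of each library on GC content taken out, 4 members passed in both ventricles: Cry2, Nr1d2, Nr1d1 (-0.92 in RV, -0.87 in LV) and Dbp (-0.88 in RV, -1.03 in LV). The shares of all genes given here are of the fits without that step. Without animal cKO_2052, Nr1d1 also passed in both ventricles (edgeR adjusted p = 0.0499 in RV and 0.0171 in LV).

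The period genes of cKO hearts gave no call in either ventricle. Per1 had 183, 115, 66.4 and 136 CPM in cKO RV and 148, 156, 43.6 and 156 in cKO LV, against WT medians of 121 in RV and 107 in LV. Per2 had 83.1, 113, 53.6 and 60.3 CPM in cKO RV and 61.7, 135, 42.0 and 85.0 in cKO LV, against WT medians of 75.3 and 58.9. Per3 had 63.1, 192, 135 and 129 CPM in cKO RV and 55.0, 217, 75.1 and 158 in cKO LV, against WT medians of 155 and 112. In each case the cKO animals lay on both sides of the WT median, with log2 differences of -0.31 to 0.63. On log2(TPM + 0.1) the Per1 differences were -0.66 in RV and -0.13 in LV and did not pass, against -0.03 and 0.30 by edgeR counts, so its direction in LV depends on the scale. Animal cKO_3213 was low for Per1 and Per2 in both ventricles, and without it both genes passed in LV (edgeR adjusted p = 0.0458 and 0.0343). Clock had log2 differences of -0.16 in RV and -0.35 in LV, and the LV value passed only without animal cKO_2006 (edgeR adjusted p = 0.0254). Cry1 was at 8.93 to 12.3 CPM in cKO RV, against 5.27 to 16.3 in WT RV, and differed by 0.00 on the log2 scale (SE 0.24). Npas2, the relative of Clock, was at 1.84 to 5.27 CPM in cKO RV, against 2.61 to 7.70 in WT RV, and its log2 difference of -0.67 passed only without animal cKO_2052 (edgeR adjusted p = 0.0291).

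**Figure D2:**
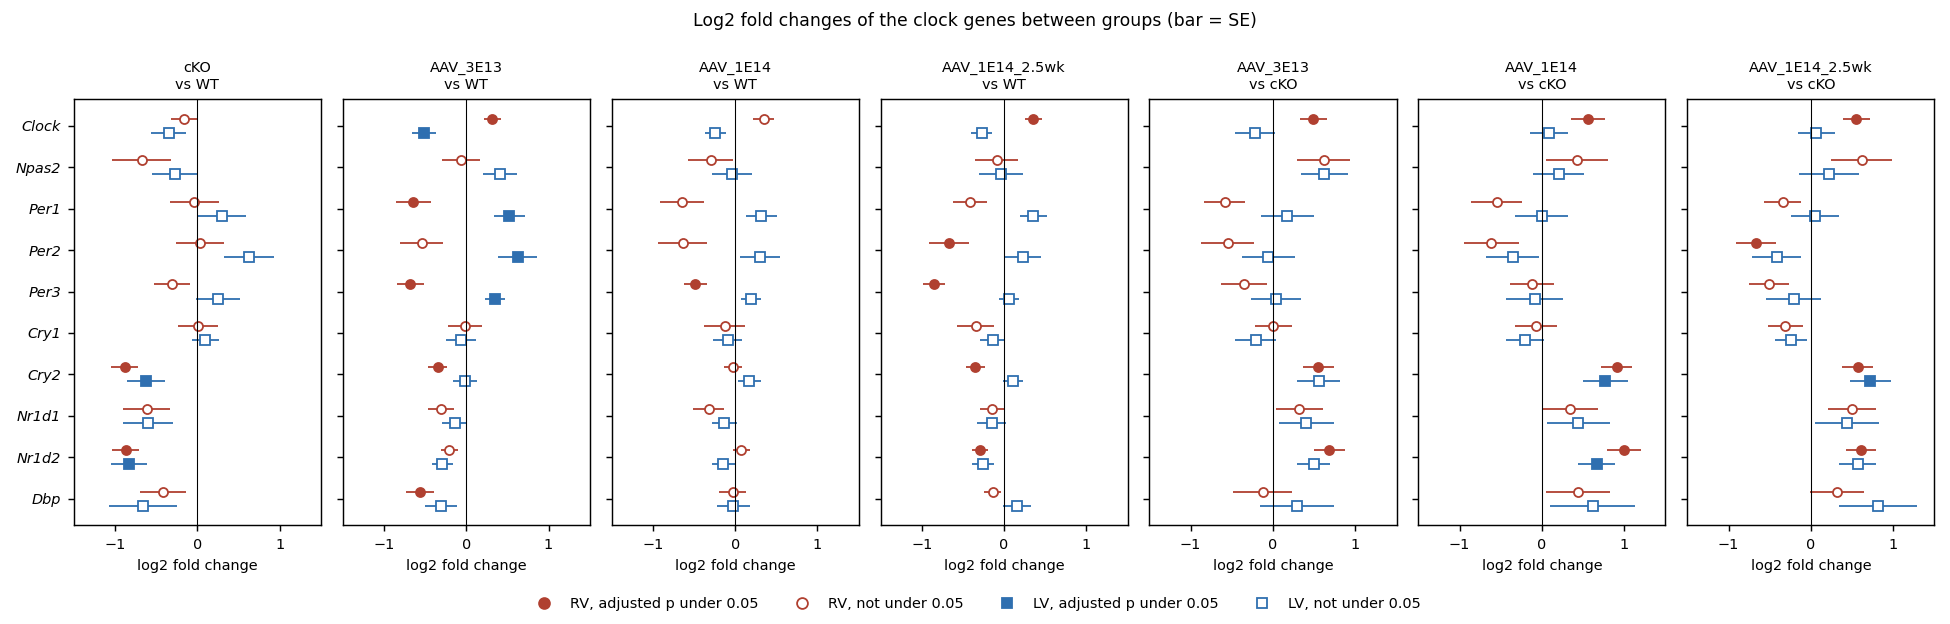
Log2 fold changes (horizontal axes) of the 10 clock genes between groups, with circles for RV and squares for LV, filled where the adjusted p was under 0.05, and bars for the SE. Against WT, the Per genes of the AAV-treated groups lie left of 0 in RV and right of 0 in LV on the CPM scale (Per3 in AAV_3E13: -0.68 in RV and 0.35 in LV; Per1 there was 0.053 in RV on log2(TPM + 1)), and against cKO, Cry2 and Nr1d2 lie right of 0 in every group and ventricle.

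In AAV-treated hearts, Per3 fell against WT in RV in all 3 groups, in AAV_1E14 not under every alternative, and in AAV_3E13 Per1 and Per3 were lower in RV and higher in LV, with Clock the reverse, except that Per1 in RV was 0.053 on the log2(TPM + 1) scale, which divides by transcript length. The 3 AAV groups and cKO were compared with the same WT libraries, so these comparisons are not independent of each other. In RV of AAV_3E13, 5 members passed, beside 21.8% of 13246 genes, with Clock higher and Per1, Per3, Cry2 and Dbp lower (median over the members -0.33, over all genes -0.02). Per3 had 60.1 to 149 CPM (median 108) in 8 AAV_3E13 RV libraries, against 124 to 224 (median 155) in WT RV, a log2 fold change of -0.68 (SE 0.17, edgeR adjusted p = 0.0078) that held without any 1 of the 17 animals. Dbp had 22.7 to 84.0 CPM (median 42.3) in AAV_3E13 RV, against 55.8 to 82.5 (median 68.9) in WT RV (log2 fold change -0.56, SE 0.17, edgeR adjusted p = 0.0278). Clock had 65.7 to 101 CPM (median 91.5) in AAV_3E13 RV, against 58.8 to 98.8 (median 70.9) in WT RV (log2 fold change 0.32, SE 0.10, edgeR adjusted p = 0.0320). All of these ranges overlapped. Per1 (log2 fold change -0.64, SE 0.21, edgeR adjusted p = 0.0362) and Cry2 (-0.35, SE 0.11, edgeR adjusted p = 0.0322) completed the 5. Dbp lost its call without animal AAV_2033 (edgeR adjusted p = 0.0526). Without any 1 of animals AAV_2029, WT_2040, AAV_2048, AAV_5768 and WT_5819, Clock, Per1 and Cry2 all lost theirs. Clock also lost it without WT_2004, WT_2031 or AAV_5759, Per1 without WT_2004 or AAV_2033 and Cry2 without WT_2027 or AAV_2033 (edgeR adjusted p up to 0.0670 for Clock, 0.0752 for Per1 and 0.0703 for Cry2). On log2(TPM + 0.1), Dbp (-0.25, limma adjusted p = 0.235) and Cry2 (-0.12, 0.541) also lost theirs, and with all 5 groups in 1 fit Clock (edgeR adjusted p = 0.0519) and Dbp (0.0641) did. With the GC trend taken out, Per3 (-0.60) and Nr1d2 (-0.32) were the members that passed.

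In LV of AAV_3E13, 4 members passed, beside 39.2% of 13116 genes: Clock was lower and all 3 period genes were higher than in WT. Clock had 53.5 to 113 CPM (median 63.0) in AAV_3E13 LV, against 79.9 to 144 (median 102) in WT LV, a log2 fold change of -0.51 (SE 0.15, edgeR adjusted p = 0.0113) that held without any 1 animal. Per1 had 87.7 to 240 CPM (median 135) in AAV_3E13 LV, against 54.3 to 149 (median 107) in WT LV (log2 fold change 0.52, SE 0.19, edgeR adjusted p = 0.0364). Per2 had 35.4 to 113 CPM (median 85.6) in AAV_3E13 LV, against 22.3 to 70.3 (median 58.9) in WT LV (log2 fold change 0.62, SE 0.23, edgeR adjusted p = 0.0394). Each group reached into the other's range for all of these genes. Per3, at 88.4 to 170 CPM (median 130) in AAV_3E13 LV, against 76.7 to 130 (median 112) in WT LV, had a log2 fold change of 0.35 (SE 0.12, edgeR adjusted p = 0.0304). Without any 1 of animals AAV_2048, WT_5803, AAV_5809, WT_5813 and WT_5823, Per1 and Per2 lost their calls. Per1 also lost it without WT_2031 or AAV_2033, Per2 without WT_2004, AAV_2045, AAV_2047 or AAV_5759, and Per3 without AAV_2045, AAV_2047, AAV_5809 or WT_5823 (edgeR adjusted p up to 0.101 for Per1, 0.0873 for Per2 and 0.0743 for Per3). The cardiomyocyte markers of AAV_3E13 LV summed to 13562 to 18185 TPM, against 17815 to 23422 in WT LV, and 5 of 5 were lower, while 4 of 4 endothelial markers were lower in RV and higher in LV, and the part of either in these results was not tested. With the GC trend taken out, Clock (-0.39) and Dbp (-0.60) were the members that passed in LV. On log2(TPM + 0.1), Clock (-0.36, limma adjusted p = 0.0558) and Per1 (0.31, 0.231) did not pass, and with all 5 groups in 1 fit Per3 did not (edgeR adjusted p = 0.146).

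In RV of AAV_1E14, the higher dose, Per3 alone differed from WT, beside 29.5% of 13488 genes. It had 106, 125, 97.1, 121 and 154 CPM in 5 AAV_1E14 RV libraries (animals AAV_2034, AAV_2043, AAV_5726, AAV_5822 and AAV_5825), against 124 to 224 (median 155) in WT RV (log2 fold change -0.48, SE 0.14, edgeR adjusted p = 0.0165). Only animals AAV_2043 and AAV_5825 reached the WT range, and the call was lost without animal AAV_2034 or AAV_5726 (edgeR adjusted p up to 0.0538). It was also lost with all 5 groups in 1 fit (-0.47, edgeR adjusted p = 0.0894), where Clock passed (0.36, 0.0465), and on log2(TPM + 0.1) (-0.34, limma adjusted p = 0.108). In LV, no member passed and none had an unadjusted p under 0.05, where 0.0075% of 13327 genes passed. Nr1d2 had 527, 389, 359, 414 and 421 CPM in AAV_1E14 RV, with all 5 libraries within or above the WT RV range of 342 to 475.

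When the vector was given after tamoxifen, 5 members passed in RV, beside 36.3% of 13452 genes, with Clock higher and Per2, Per3, Cry2 and Nr1d2 lower than in WT (median over the members -0.32, over all genes -0.02). Per3 had 76.2 to 113 CPM (median 90.9) in 6 AAV_1E14_2.5wk RV libraries, against 124 to 224 (median 155) in WT RV, without overlap (log2 fold change -0.85, SE 0.13, edgeR adjusted p = 0.0001). Clock had 75.9 to 102 CPM (median 95.5) in AAV_1E14_2.5wk RV, against 58.8 to 98.8 (median 70.9) in WT RV (log2 fold change 0.36, SE 0.10, edgeR adjusted p = 0.0132). Both calls held without any 1 of the 15 animals, but Clock lost its own with the animal number series as a term (0.23, edgeR adjusted p = 0.150). Per2 (log2 fold change -0.67, SE 0.24, edgeR adjusted p = 0.0397), Cry2 (-0.35, SE 0.11, 0.0252) and Nr1d2 (-0.29, SE 0.10, 0.0267) lost their calls without animal AAV_5755, AAV_5807 or AAV_5814. Per2 also lost it without WT_2004, WT_2027, WT_2040, AAV_5801, AAV_5806 or WT_5819, and Nr1d2 without AAV_5810 (edgeR adjusted p up to 0.0905 for Per2, 0.0706 for Cry2 and 0.0776 for Nr1d2). All 3 lost them on log2(TPM + 0.1) (limma), where Per2 was -0.21 (adjusted p = 0.572), Cry2 -0.31 (0.130) and Nr1d2 -0.22 (0.0985), and Per2 and Nr1d2 with all 5 groups in 1 fit (edgeR adjusted p = 0.0741 and 0.0731). In LV no member passed (2 had an unadjusted p under 0.05), where 1.49% of 13274 genes passed.

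Set against cKO rather than WT, the genes that moved were again Cry2 and Nr1d2, now higher in treated hearts, together with Clock in RV. These comparisons share the 4 cKO animals with each other and with the comparison of cKO and WT. In RV, Nr1d2 was higher by a log2 fold change of 0.68 in AAV_3E13 (SE 0.19, edgeR adjusted p = 0.0094), 1.00 in AAV_1E14 (SE 0.21, 0.0020) and 0.61 in AAV_1E14_2.5wk (SE 0.19, 0.0179). Cry2 was higher by 0.55 (SE 0.19, edgeR adjusted p = 0.0322), 0.91 (SE 0.19, 0.0022) and 0.57 (SE 0.19, 0.0280) in the same order of groups. In AAV_1E14 RV, Cry2 had 57.4, 62.0, 49.5, 66.6 and 62.9 CPM, against 20.8 to 40.4 in cKO RV, and Nr1d2 had 359 to 527, against 131 to 256, so that neither gene overlapped. Clock was higher by 0.49 (SE 0.16, edgeR adjusted p = 0.0248), 0.56 (SE 0.20, 0.0398) and 0.55 (SE 0.17, 0.0177), and its call was lost in AAV_3E13 without cKO_2052 or cKO_3213 (edgeR adjusted p up to 0.0883) and in AAV_1E14 without AAV_2034, cKO_2052, cKO_3213, cKO_3217, AAV_5726 or AAV_5822 (up to 0.106). The call of Cry2 was lost in AAV_3E13 without cKO_2006, AAV_2045, AAV_2047 or cKO_3217 (edgeR adjusted p up to 0.106) and in AAV_1E14_2.5wk without cKO_2006, cKO_3217, AAV_5801 or AAV_5810 (up to 0.0650). Per2 was lower than in cKO in AAV_1E14_2.5wk RV (log2 fold change -0.67, SE 0.25, edgeR adjusted p = 0.0422) and lost its call without cKO_2006, cKO_2052, AAV_5755, AAV_5801, AAV_5806, AAV_5807 or AAV_5814 (edgeR adjusted p up to 0.179). On log2(TPM + 0.1) this difference was -0.07 (limma adjusted p = 0.870), and with all 5 groups in 1 fit it did not pass (edgeR adjusted p = 0.0995). The effective length of Per2, the transcript length that reads could come from, reached down to 3562 bases in AAV_1E14_2.5wk RV, against 6494 to 6758 in cKO RV. With the GC trend taken out, Clock did not pass in any of the 3 groups (0.23, 0.32 and 0.33), nor did Nr1d2 in AAV_3E13 (0.42) and AAV_1E14_2.5wk (0.38). With the animal number series as a term, none of the 3 calls of AAV_3E13 remained, and Per1 (-0.94, edgeR adjusted p = 0.0423) passed instead. The 3, 3 and 4 members that passed in RV compare with 42%, 50.6% and 47.9% of all genes.

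In LV, no member passed between AAV_3E13 and cKO (2 with an unadjusted p under 0.05), where 18% of genes did. AAV_1E14 was higher than cKO for Cry2 (log2 fold change 0.77, SE 0.27, edgeR adjusted p = 0.0487) and Nr1d2 (0.66, SE 0.22, 0.0407), beside 35.4% of genes. The 5 AAV_1E14 LV libraries held 50.03, 53.5, 41.2, 56.6 and 66.8 CPM of Cry2, against 15.8, 46.9, 26.8 and 32.9 in cKO LV. AAV_1E14_2.5wk was higher for Cry2 alone (0.72, SE 0.25, edgeR adjusted p = 0.0454), beside 33.3%. Every LV call named here was lost without animal cKO_2006 or cKO_3213. In AAV_1E14, both were also lost without AAV_2034, AAV_2043, AAV_5822 or AAV_5825, Cry2 without cKO_3217 and Nr1d2 without AAV_5726 (edgeR adjusted p up to 0.108 for Cry2 and 0.0966 for Nr1d2). On log2(TPM + 0.1), Cry2 did not pass in AAV_1E14 or AAV_1E14_2.5wk (limma adjusted p = 0.0723 and 0.0630). In AAV_1E14_2.5wk, Cry2 was lost without cKO_3217, AAV_5755, AAV_5801, AAV_5806, AAV_5810 or AAV_5814 (edgeR adjusted p up to 0.102). Between the treated groups no member passed: between AAV_1E14 and AAV_3E13, 9.97% of genes passed in RV and 19% in LV (2 and 0 members with an unadjusted p under 0.05), and between AAV_1E14_2.5wk and AAV_1E14, 8.93% in RV and 0.00% in LV (3 and 0 members).

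RV and LV of the same animals were compared because both were taken from 1 heart at 1 time. In WT hearts, Per3 and Cry2 were higher and Clock lower in RV than in LV, 3 of 10 members beside 27.7% of 12970 genes. Per3 had 124 to 224 CPM (median 155) in WT RV, against 76.7 to 130 (median 112) in WT LV, and was higher in RV in 9 of 9 animals (log2 fold change 0.65, SE 0.11, edgeR adjusted p = 0.0003). Clock had 58.8 to 98.8 CPM (median 70.9) in WT RV, against 79.9 to 144 (median 102) in WT LV, and was lower in RV in 9 of 9 animals (log2 fold change -0.56, SE 0.12, edgeR adjusted p = 0.0015). The ranges of both genes overlapped in part. Cry2 differed less (0.34, SE 0.11, edgeR adjusted p = 0.0195) and lost its call without animal WT_2027 (edgeR adjusted p = 0.0510) or with the GC trend taken out (0.0587). With the animal as a block, Per1 (0.33, edgeR adjusted p = 0.0258) and Per2 (0.57, 0.0019) passed as well, 5 members in all, and Per2 was higher in RV in 9 of 9 WT animals. The shares of all genes given here and below belong to the fits without the block. Counts of members with the block have no share of all genes beside them and are not read as an excess.

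In AAV_3E13 hearts the period genes were lower in RV than in LV, Per1 by the unblocked fit (but 0.077 on log2(TPM + 1)) and Per2 and Per3 with the animal as a block. Per1 had 61.2 to 134 CPM (median 82.7) in RV, against 87.7 to 240 (median 135) in LV, and was lower in RV in 8 of 8 animals (log2 fold change -0.80, SE 0.20, edgeR adjusted p = 0.0088), the only member that passed beside 20.2% of genes. With the animal as a block, Per2 (-0.60), Per3 (-0.40) and Nr1d1 (-0.31) were the others that passed. In AAV_1E14 no member passed (2 with an unadjusted p under 0.05, beside 2.95% of genes), and with the block Per1 (-0.65) and Nr1d1 (-0.36) did. For example, Per1 had 61.3, 123, 50.8, 89.0 and 107 CPM in AAV_1E14 RV, against 123, 120, 97.7, 146 and 159 in LV, lower in RV in 4 of 5 animals. In AAV_1E14_2.5wk no member passed (2 with an unadjusted p under 0.05, beside 0.0226% of genes), nor in cKO (0 members, beside 0.00726%), where Per1, Per2 and Per3 were each higher in RV in 2 of 4 animals.

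**Figure D3:**
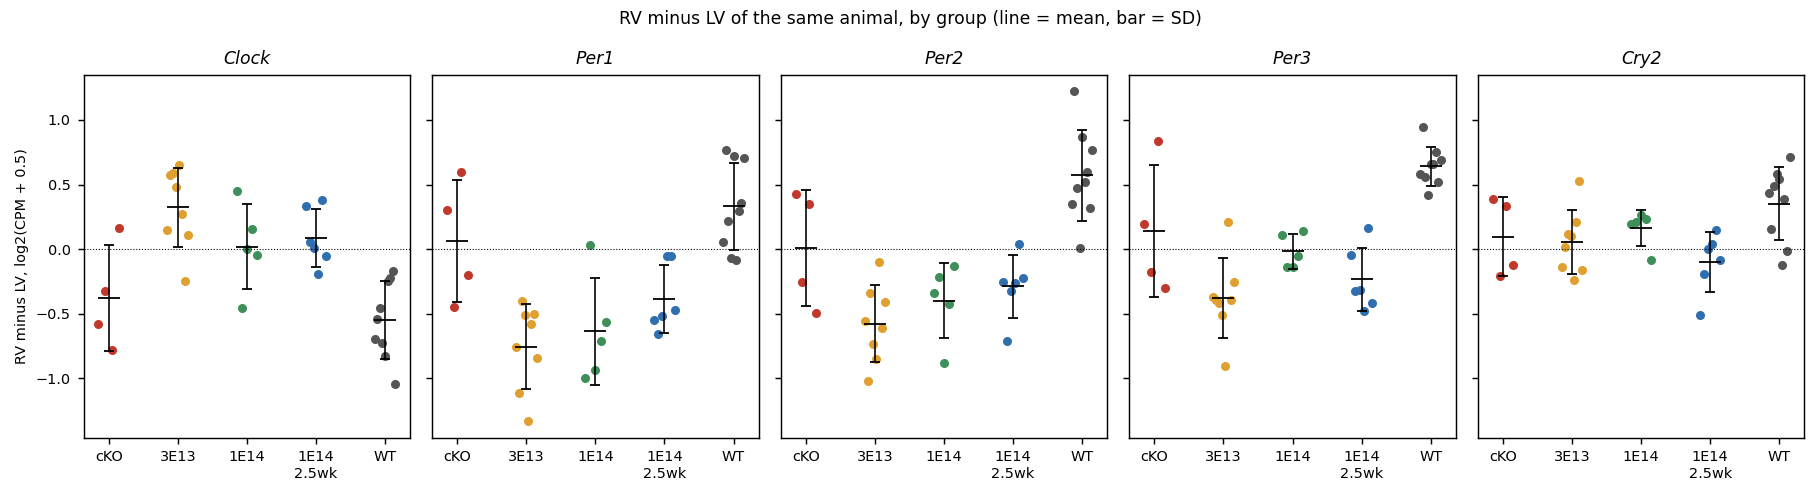
RV minus LV of log2(CPM + 0.5) in each animal for 5 clock genes, by group, with the mean and SD; the dotted line marks 0. Per3 lies above 0 in all 9 WT animals (0.64 ± 0.15) and below 0 in 7 of 8 AAV_3E13 animals (-0.38 ± 0.31), and Clock shows the opposite (WT -0.55 ± 0.30, AAV_3E13 0.32 ± 0.31).

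The difference between ventricles was then compared between groups by an interaction term, as the AAV group minus WT in RV less the same in LV. For AAV_3E13 it passed in 4 members, beside 36.9% of 13983 genes: Clock (0.84, SE 0.19, edgeR adjusted p = 0.0007), Per1 (-1.15, SE 0.30, 0.0027), Per2 (-1.15, SE 0.37, 0.0142) and Per3 (-1.01, SE 0.21, 0.0004). These 4 held without any 1 of the 17 animals, with the animal as a block, and with the block and the GC trend taken out together, where the values were 0.63, -0.74, -0.91 and -0.87. With the GC trend taken out and no block, Per2 did not pass (-0.87, edgeR adjusted p = 0.0638), and on log2(TPM + 1) Per1 did not (-0.26, limma adjusted p = 0.551). For AAV_1E14 it passed in Clock (0.58, SE 0.19, edgeR adjusted p = 0.0284), Per1 (-0.96, SE 0.34, 0.0479) and Per3 (-0.67, SE 0.19, 0.0111), beside 20% of genes. Per1 lost this call without WT_13, WT_2004, WT_2027, AAV_2034, WT_2040, AAV_5726, WT_5813, AAV_5822 or AAV_5825 (edgeR adjusted p up to 0.112) and Clock without AAV_2034, WT_2040 or AAV_5822 (up to 0.1004). On log2(TPM + 1) none of the 3 passed (limma adjusted p = 0.0974 for Clock, 0.388 for Per1 and 0.0780 for Per3). With the animal as a block all 3 passed, Per1 at -0.98 (edgeR adjusted p = 0.0014), and Per2 (-0.98, 0.0007) joined them. For AAV_1E14_2.5wk it passed in Clock (0.66, SE 0.17, edgeR adjusted p = 0.0080) and Per3 (-0.88, SE 0.18, 0.0014), beside 18.4% of genes, Clock not on log2(TPM + 1) (0.48, limma adjusted p = 0.0635), and with the block Per1 (-0.71), Per2 (-0.85) and Cry2 (-0.44) joined them. For cKO it passed in no member (0 with an unadjusted p under 0.05, beside 0.0272%). With the block no member passed in cKO either, but Per2 was -0.56 (edgeR unadjusted p = 0.0205, adjusted 0.167) and Per3 -0.50 (0.0118, adjusted 0.128). All 4 contrasts use the same 9 WT animals, so the direction they share is not independent evidence.

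Some technical measures moved with these differences. Across genes, the interaction for AAV_3E13 had a Spearman correlation of -0.35 with GC content and that for AAV_1E14_2.5wk one of -0.33 (about 90% of tested genes had a GC value, and genes are not independent replicates). The members span 41.5% GC (Clock) to 61.1% (Dbp), with Per1 at 56.1%, Per2 at 54.1% and Per3 at 52.4%. The estimated effective length of Per1 ranged from 1602 to 4543 bases over the libraries, with a median of 2042 in AAV_3E13 RV and 3882 in AAV_3E13 LV, against 3063 in WT RV and 2746 in WT LV. Per1 was not lower in TPM in AAV_3E13 RV (mean 79.0 TPM, against 76.3 in WT RV), and with the effective length as an offset its interaction was -0.35 and did not pass. The effective length of Clock varied by 1.13 times, that of Per3 by 1.36 times and that of Per2 by 1.92 times (3562 to 6821 bases).

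To see whether a clock gene level belonged to the animal, each library's log2 CPM was set against the mean of its group and ventricle, and the deviations of RV and LV were correlated over 32 animals, with animals permuted within groups (two-sided, 100000 resamples). All 10 members correlated positively with a permutation p under 0.05 (10 tests, Benjamini-Hochberg adjusted p given beside each raw p). Nr1d1 stood highest, with Pearson's r = 0.88 and Spearman's rho = 0.83 (permutation p = 1e-05, the smallest that 100000 permutations can give, adjusted 3.3e-05), followed by Per2 with r = 0.83 and rho = 0.78 (the same permutation p and adjusted p). Per3 had r = 0.76 and rho = 0.76 (permutation p = 1e-05, adjusted 3.3e-05). These 3 genes deviated to the same side in RV and LV in 27, 29 and 26 of 32 animals. Dbp had r = 0.75 and rho = 0.51 (permutation p = 0.00093, adjusted 0.0013), Per1 r = 0.71 and rho = 0.67 (2e-05, adjusted 5e-05), Cry2 r = 0.69 and rho = 0.65 (0.00024, adjusted 0.00048) and Nr1d2 r = 0.67 and rho = 0.60 (0.00042, adjusted 0.0007). Cry1 had r = 0.53 and rho = 0.52 (permutation p = 0.0039, adjusted 0.0049). Clock, with r = 0.46 and rho = 0.40 (permutation p = 0.0314, adjusted 0.0349), and Npas2, with r = 0.39 and rho = 0.32 (permutation p = 0.0389, adjusted 0.0389), were the weakest.

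Over all 15313 genes kept, the same r had a median of 0.22, with the 5th and 95th percentiles at -0.17 and 0.63, and 13.97% of genes reached 0.5, against a median of 0.70 and 8 of 10 for the clock genes. Without the 2 animals farthest from the median on the RV axis, r was 0.79 for Nr1d1, 0.79 for Per2, 0.70 for Per3, 0.67 for Cry2, 0.66 for Per1, 0.55 for Nr1d2, 0.54 for Dbp, 0.40 for Cry1, 0.35 for Clock and 0.34 for Npas2. The relation of Clock no longer passed without animal cKO_2006 (permutation p = 0.0825), without the cKO group (0.0638) or on log2(TPM + 1) (0.0826), and that of Npas2 not by rank (0.0947), with the GC trend taken out (0.0613), without animal AAV_5814 (0.0527), without the cKO group (0.0640) or with the animal number series taken into the means (0.214). RV and LV of an animal also share its dose, age and condition, and the share of the hour of collection in this agreement was not tested. Fkbp5, a glucocorticoid target and no clock gene, had r = 0.93, and Ciart, a clock repressor, r = 0.75, while Arntl had 0.29 and Nfil3 0.18.

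**Figure D4:**
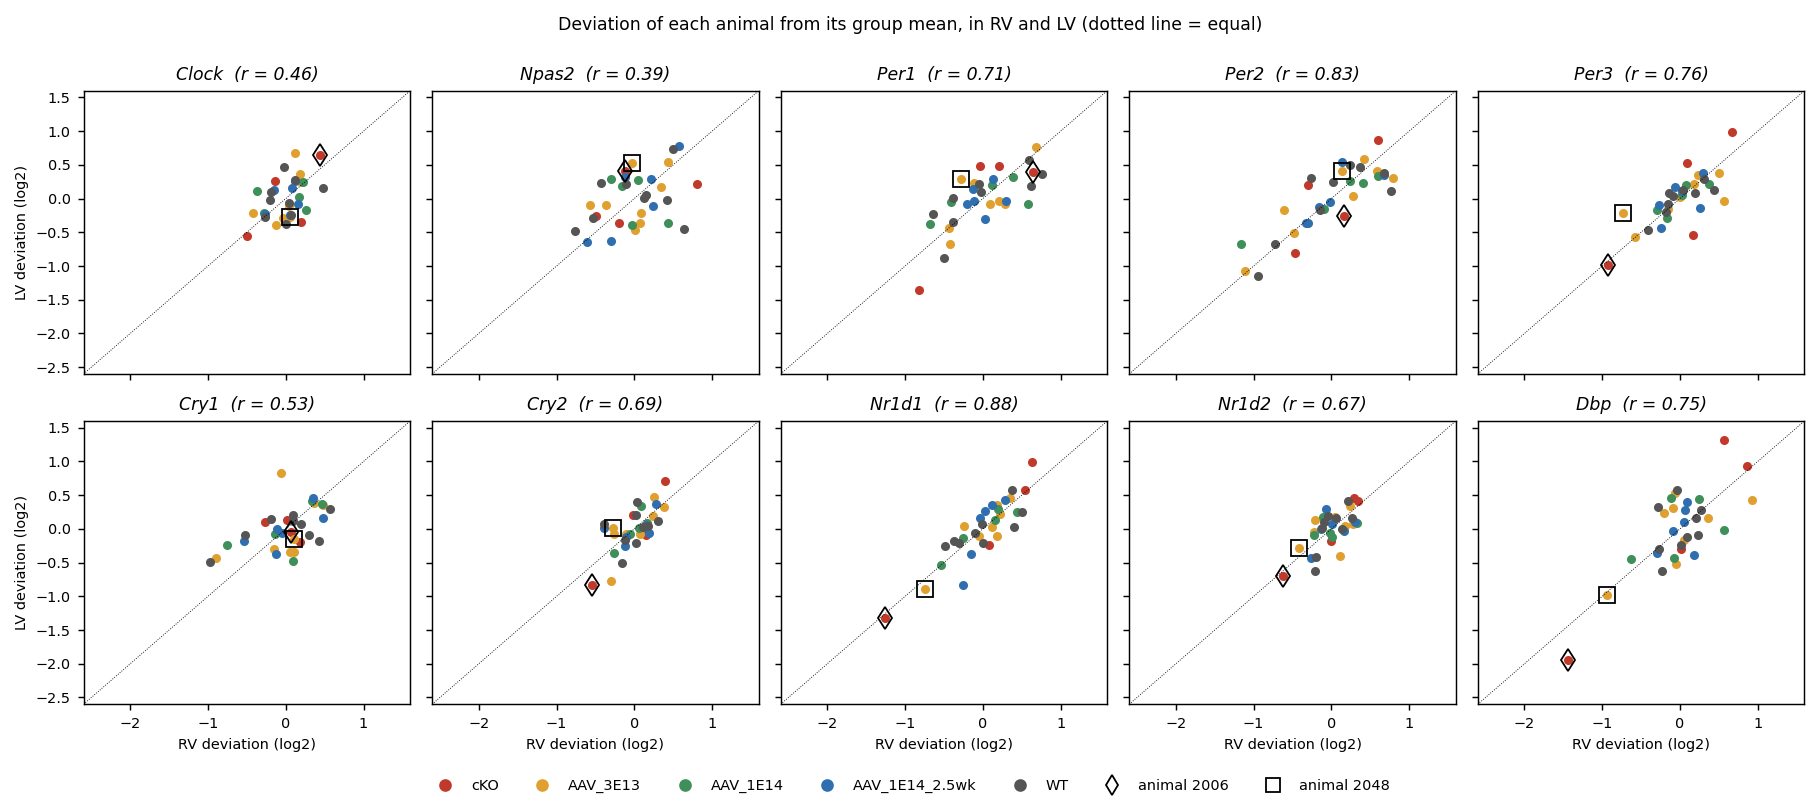
Deviation of each animal's log2(CPM + 0.5) from its group mean in RV (horizontal) and LV (vertical) for the 10 clock genes, coloured by group, with Pearson's r above each panel. Points of Nr1d1 and Per2 follow the dotted line of equal values (r = 0.88 and 0.83), and animals cKO_2006 and AAV_2048, marked by a diamond and a square, lie at the low end for Nr1d1 and Dbp in both ventricles.

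A pair of animals stood apart in both of their ventricles. Animal cKO_2006 also had the highest correlation of RV and LV deviations over all genes (0.57, median 0.13), so its shared deviation was not limited to clock genes. That correlation was 0.23 in AAV_2048, and both animals were also the farthest out in RV for the glucocorticoid target Fkbp5. The part of their condition in the clock gene values was not tested. The cKO animal cKO_2006 had the lowest Dbp (15.2 CPM in RV, 8.09 in LV), Nr1d1 (52.0 and 55.0), Nr1d2 (131 and 127), Cry2 (20.8 and 15.8) and Per3 (63.1 and 55.0) of its group, with the highest Clock (81.1 and 121). The AAV_3E13 animal AAV_2048 had the lowest Dbp (22.7 CPM in RV, 27.3 in LV) and Nr1d1 (106 and 117) of its group. Its Clock deviated from the group mean by 0.06 in RV and -0.27 in LV on the log2 scale, unlike that of cKO_2006. The log2 ratio of Dbp to Npas2, members that peak at opposite times of day, needs no scaling by library size. Npas2 was read from few counts (median 35.5 per library), so the ratio carries their error. The mean of this ratio over RV and LV was 1.45 in animal cKO_2006 (2.38 in RV, 0.52 in LV) and 1.84 in animal AAV_2048 (2.19 and 1.49). It was then 2.27 in AAV_5768 and 2.74 in AAV_2029 (both AAV_3E13), against 4.55 in the cKO animal cKO_3217 and 4.40 in the WT animal WT_2004 at the other end. By group, the ratio averaged 3.69 ± 1.10 in cKO RV and 2.88 ± 1.65 in cKO LV (SD, n = 4 each), against 3.70 ± 0.64 in WT RV and 3.71 ± 0.46 in WT LV (n = 9 each), and 3.10 ± 0.56 and 3.00 ± 0.88 in AAV_3E13 (n = 8 each). The 4 lowest animals were a cKO and 3 AAV_3E13 animals, and the 4 cKO animals reached from the lowest value to the highest.

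The members also moved with each other from animal to animal. Over the 45 pairs, the mean of the RV and LV deviations of 32 animals gave 27 positive and 18 negative Pearson correlations, 22 with a permutation p under 0.05 and 18 after Benjamini-Hochberg adjustment over the 45 pairs (13 positive, 5 negative). Pairs of other genes were not counted in this way, so the counts do not set the members apart from other genes. The 2 highest positive correlations were between repressors. Per3 with Cry2 had r = 0.88 and rho = 0.81 (permutation p = 1e-05 for each, adjusted 0.00011 and 0.00022), and r = 0.81 without the 2 animals farthest out in Per3. Per2 with Cry1 had r = 0.85 and rho = 0.81 (the same p values), Per1 with Per2 r = 0.75 and Per2 with Cry2 r = 0.72. Dbp went with Nr1d1 (r = 0.78) and Per3 (0.75), and Per3 with Nr1d2 (0.74). Clock ran against several repressors and against Dbp. With Cry2 it had r = -0.81 and rho = -0.71 (permutation p = 1e-05 and 8e-05, adjusted 0.00011 and 0.00067), and r = -0.71 without the 2 animals farthest out in Clock. Its r was -0.73 with Per3, -0.65 with Dbp and -0.58 with Per2, and Cry1 with Nr1d1 gave -0.38. These signs set Clock apart from Cry2, Per3 and Per2 but also from Dbp, itself an activator, while Npas2 gave no pair that passed. Clock has the lowest GC content of the members (41.5%, against 55.8% for Cry2 and 61.1% for Dbp). With the GC trend taken out, 21 pairs passed. Levels of both genes of a pair come from 1 library and share its depth and composition, so each pair was also read across ventricles. Per3 in RV with Cry2 in LV gave r = 0.74 and the reverse 0.72, and Clock in RV with Cry2 in LV gave -0.58 and the reverse -0.47. Without animals cKO_2006 and AAV_2048, 24 pairs passed, but Nr1d1 with Dbp did not (r = 0.46, adjusted permutation p = 0.0564).

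**Figure D5:**
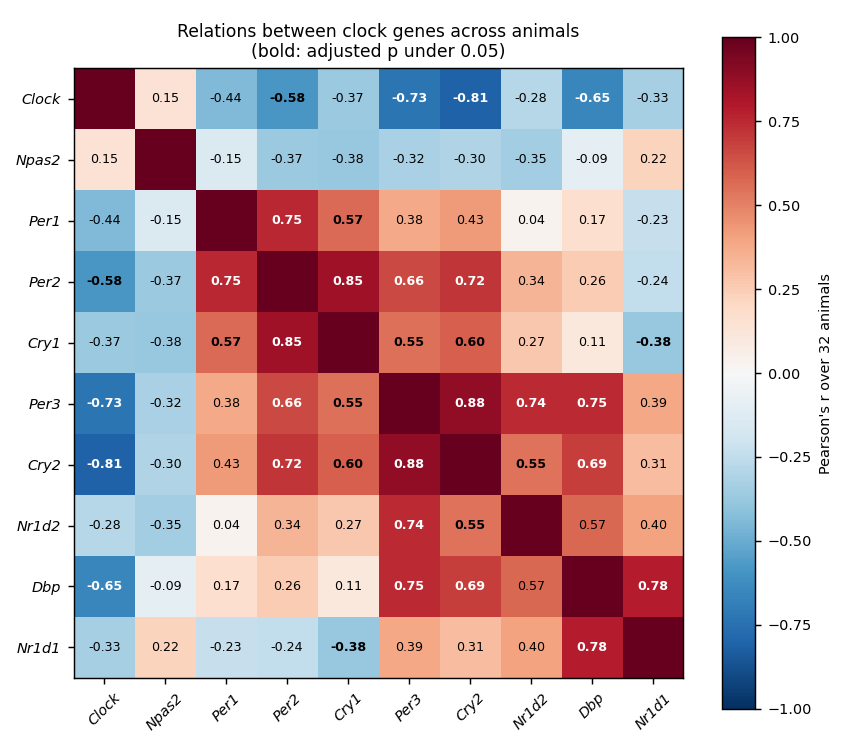
Pearson's r over 32 animals for each pair of clock genes, from the mean of the RV and LV deviations, with colours from -1 to 1 and bold type where the permutation p adjusted over 45 pairs was under 0.05. Per1, Per2, Per3, Cry1 and Cry2 form a block of positive values and Clock is negative with them (-0.81 with Cry2).

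Outside the members, several of the genes whose deviations over 64 libraries were most like those of a member are clock genes themselves. Among 10747 genes with a mean of at least 5 CPM, Tef, a D-box activator, was the closest to Per3 (r = 0.94), whose promoter holds the D-boxes printed here, and to Cry2 (r = 0.85). Hlf, of the same family, was second for Per3 (r = 0.82) and first for Nr1d2 (r = 0.83). Csnk1e, the kinase CK1ε that phosphorylates PER proteins, was the closest to Per1 (r = 0.73), and Cirbp, a cold-inducible RNA-binding protein, was second for Cry2 (r = 0.82). Dbp was most like Tcap, which encodes the sarcomere protein telethonin (r = 0.88), and Kcnip2, which encodes a subunit of the transient outward potassium channel (r = 0.87), followed by Asb2 (0.84). Per2 was most like Rhobtb1 (0.77) and Rev1 (0.76), Cry1 like Rev1 (0.70), Nr1d1 like Septin4 (0.76) and Prickle1 (0.72), Clock like Stt3a (0.80), Stx7 (0.79) and Cdc27 (0.78), and Npas2 like Zfhx2 (0.46), its highest. Libraries share depth and base composition, so these values describe likeness only.

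Other genes of the pathway are given from lists. Of 11 other clock transcription factors, 0 were higher and 6 lower in cKO RV than in WT RV, beside 42.3% of all genes, with a median log2 fold change of -0.42 (all genes 0.02). The ROR activator Rorb (-1.998, SE 0.39, edgeR adjusted p = 0.0008) fell, as did the D-box factors Hlf (-1.05, SE 0.28, 0.0068) and Tef (-0.70, SE 0.20, 0.0118). In cKO LV, 1 was higher and 3 were lower, beside 46.6% of all genes. Among them were Rorb at -2.28 and Rora at -0.77, with Arntl2, the paralogue of Arntl, higher at 0.59 (edgeR adjusted p = 0.0471). Arntl itself, the partner of CLOCK, ranged from 0 to 13.8 CPM over cKO and WT libraries and did not pass. In AAV_1E14 RV, 5 were higher and 0 lower than in cKO RV, beside 50.6% of all genes, among them Rorb (2.61), Rora (0.83) and Ciart (0.99). Between WT RV and LV, Tef was higher in RV (0.47, edgeR adjusted p = 0.0025), as Per3 was, and Bhlhe41 (-0.40) and Bhlhe40 (-0.32) were lower.

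Of 16 kinases, ubiquitin ligases and partners that set the stability of clock proteins, 15 were tested. In cKO RV, 2 were higher and 4 lower than in WT RV, beside 42.3% of all genes. In cKO LV, 1 was higher and 7 were lower, beside 46.6%. Prkaa2, a catalytic subunit of AMPK, fell by 1.53 in RV and by 2.05 in LV on the log2 scale, and Usp2, a deubiquitinase, fell by 1.62 and by 2.01. Of 16 genes that the clock drives in heart, 3 were higher and 10 lower in cKO RV than in WT RV (median log2 fold change -1.11), and 3 higher and 11 lower in cKO LV (-1.38), beside 42.3% and 46.6% of all genes. Nampt, which makes a precursor of NAD, had log2 fold changes of -1.28 in RV and -1.72 in LV, and Dgat2, an enzyme of triglyceride synthesis, -2.07 and -2.46. The potassium channel gene Kcnd2 had -1.77 and -2.88. Many of these outputs are also cardiomyocyte genes, and 4 of 5 cardiomyocyte markers in RV and 5 of 5 in LV were lower in the same comparisons. Against cKO, 11 outputs were higher and 2 lower in AAV_1E14 RV (median 1.32), beside 50.6% of all genes, among them Nampt (2.01) and Pik3r1 (1.34). Of 8 glucocorticoid response genes, which react to stress and to handling, 2 were higher and 1 lower in cKO RV (Mt2 2.14, Fkbp5 1.22, Klf9 -0.81), beside 42.3% of all genes. In cKO LV, 3 were higher and 1 lower (Fkbp5 1.10, Mt2 1.28, Errfi1 0.52, Klf9 -1.14), beside 46.6%. The part of these genes in the clock gene values was not tested.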

How the data were processed

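RNA of RV and LV was sequenced as paired-end reads with a stranded total RNA kit that removes ribosomal RNA, while the labels also name a polyA protocol for the same libraries, and which of them set the RNA that was read is not given in the sources used here. The authors trimmed reads with fastp, estimated transcript abundance with Salmon 1.8.0 and summed it to genes with tximport, and deposited tables of estimated counts, TPM and effective lengths per gene. The deposited TPM equalled counts over effective length, rescaled to a fixed sum, within a relative gap of 0.0079.

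The estimated counts were rounded, 37 mitochondrial genes and 1 row with no gene name (0.000277 to 0.00136% of counts) were left out, and each comparison was fitted on its own groups with edgeR's quasi-likelihood test (edgeR 4.0.16, R 4.3.3), TMM scaling and filterByExpr, with Benjamini-Hochberg adjustment over all genes tested and a threshold of 0.05. The SE is the log2 fold change over the square root of F. RV and LV were also compared with the animal as a block, since the labels give both ventricles of an animal 1 number. The correlation of RV and LV deviations over 15313 genes had a median of 0.13 over the 32 animals and was over 0.1 in 21. On simulated counts the test recovered, at log2 changes of 1 and 0.5, 43% and 4% of changed genes for cKO vs WT in RV (14150 genes), 77% and 30% for AAV_3E13 vs WT in RV (13246 genes), 81% and 34% for RV vs LV in WT (12970 genes) and 52% and 16% for the AAV_3E13 interaction (13983 genes). Only 100 genes were changed at each size, against 5990 that passed for cKO vs WT in RV. With so few changed genes the adjustment was stricter than in the data, so these shares do not give the recovery in the real comparisons. Alternatives were DESeq2 1.42.0, limma 3.58.1 on log2(TPM + 1) and log2(TPM + 0.1), no low-count filter, mitochondrial genes kept, all 5 groups in 1 fit, effective length or GC content as an offset, the animal number series as a term, both ventricles summed, and each animal left out. The animal number series grouped animals by their number as 2004 to 2052, 5726 to 5825 and all others. What sets these numbers apart is not given in the sources used here, and the groups are spread unevenly over them. Deviations used log2(CPM + 0.5), and correlations 100000 permutations of animals within groups (Python 3.11.15).

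The members and lists were chosen with earlier results of these data known. Named genes are all 10 members, up to 4 genes that passed per list and comparison by smallest p, and up to 3 genes most like each member by Pearson's r over 64 libraries among genes of at least 5 CPM.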

Additional observations from a re-analysis of the deposited data

Results flagged for a closer look

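In 100 sets of libraries (10 members, 5 groups, 2 ventricles), 4 held a library far from the rest of its group, where chance alone gives about 1 in 20 sets. Per1 in cKO LV was 43.6 CPM in animal cKO_3213, with the next library at 148 CPM, a gap of 0.959 of the range (critical value 0.829 for 4 libraries). In AAV_3E13, with a critical value of 0.526 for 8 libraries, Cry1 in RV was 5.66 CPM in animal AAV_5768 (next 9.76, gap 0.536), Cry2 in LV was 26.2 CPM in the same animal (next 42.7, gap 0.559) and Nr1d1 in LV was 117 CPM in animal AAV_2048 (next 200, gap 0.579).

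The difference from WT was not the same in RV and LV for Clock, Per1, Per2 and Per3 in treated groups, by the interaction test of edgeR. In AAV_3E13 the interaction was 0.84 for Clock, -1.15 for Per1, -1.15 for Per2 and -1.01 for Per3 on the log2 scale. In AAV_1E14 it was 0.58 for Clock, -0.96 for Per1 and -0.67 for Per3, and in AAV_1E14_2.5wk 0.66 for Clock and -0.88 for Per3. All of these use the same 9 WT animals.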

How the results depend on the processing

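Directions mostly held and counts often moved. The shares of all genes given in Results belong to the main fits, and the counts under alternatives are given without shares of their own. Counted were fold changes of genes that passed a comparison and the RV and LV correlations of all members. Under alternatives, 833 of these values kept direction and side of the threshold, 242 kept direction but no longer passed and 5 reversed. Fits with 1 animal left out are among them and share most of their data with the main fit. The reversals were all fold changes. In AAV_3E13 vs WT in RV, Clock was -0.11 and Per1 0.012 with both ventricles summed, and Per1 was 0.053 on log2(TPM + 1) and 0.054 on log2(TPM + 0.1). In RV vs LV of AAV_3E13, Per1 was 0.077 on log2(TPM + 1). Values that did not pass could change sign too, as Per1 in AAV_3E13 vs cKO in RV did (-0.59 by edgeR, 0.71 on log2(TPM + 0.1)). The GC offset, alone or with the block, and 5 alternatives for the correlations were chosen after seeing the data. Fewer counts for a gene widen its error, which bears most on Npas2 and Cry1.

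Members that passed were, for cKO vs WT in RV (2), 4 with the GC offset, on log2(TPM + 1) and on log2(TPM + 0.1), and in LV (2), 4 with the GC offset and 1 with effective length as an offset or the animal number series as a term. For AAV_3E13 vs WT in RV (5) they were 2 with the GC offset, on both TPM scales and with effective length, 3 with all 5 groups in 1 fit and 0 with both ventricles summed, and in LV (4), 2 with the GC offset, on both TPM scales and with effective length, and 1 with no low-count filter or with the number series. For AAV_1E14 vs WT in RV (1) they were 2 with DESeq2 and with mitochondrial genes kept, and 0 on both TPM scales and with ventricles summed. For AAV_1E14_2.5wk vs WT in RV (5) they were 3 with the GC offset and with all 5 groups in 1 fit, 2 on both TPM scales and with the number series, and 1 with ventricles summed.

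For AAV_3E13 vs cKO they were 5 on both TPM scales and 1 (Per1, none of the 3) with the number series in RV (3), and in LV (0) 1 on both TPM scales and 2 with all 5 groups in 1 fit. For AAV_1E14 vs cKO in LV (2) they were 1 with the GC offset, with no low-count filter and on both TPM scales, and 0 with effective length and with the number series. For AAV_1E14_2.5wk vs cKO they were 1 with effective length and 2 with ventricles summed in RV (4), and in LV (1) 0 with no low-count filter, mitochondrial genes kept or effective length, and 2 with all 5 groups in 1 fit. Between AAV_1E14 and AAV_3E13 in RV (0), 1 passed with the GC offset, and between AAV_1E14_2.5wk and AAV_1E14 in RV (0), 1 with the GC offset and 1 with DESeq2. Apart from this and RV vs LV of AAV_1E14, the comparisons in which 0 members passed by edgeR also gave 0 with DESeq2.

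With the animal as a replicate block, 5 members passed in RV vs LV of WT (3 without it), 4 in AAV_3E13 (1) and 2 in AAV_1E14 (0), and with the block and GC offset 6, 4 and 1. In RV vs LV of AAV_3E13, 0 passed on log2(TPM + 1) and with effective length, and in AAV_1E14, 1 passed with DESeq2. For the interaction of AAV_1E14 (3), 0 passed on log2(TPM + 1) and 5 with the block and GC offset, and with the block 4. For that of AAV_1E14_2.5wk (2), 4 passed with DESeq2, 1 on log2(TPM + 1), and 5 with the block, with or without the GC offset. The block changed no other count by over 1.5 times.

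Leaving out each animal gave, in RV and LV, 2 to 4 and 1 to 4 members for cKO vs WT, 2 to 5 and 1 to 5 for AAV_3E13 vs WT, 0 to 3 and 0 to 0 for AAV_1E14 vs WT, 2 to 5 and 0 to 0 for AAV_1E14_2.5wk vs WT, 2 to 4 and 0 to 1 for AAV_3E13 vs cKO, 2 to 3 and 0 to 2 for AAV_1E14 vs cKO, 2 to 5 and 0 to 2 for AAV_1E14_2.5wk vs cKO, and 0 to 1 and 0 to 0 for both comparisons between treated groups. It gave 1 to 2 for RV vs LV of AAV_3E13, 2 to 4 for WT and 0 to 0 for the other groups, and for the interaction 4 to 4 in AAV_3E13, 1 to 3 in AAV_1E14, 2 to 4 in AAV_1E14_2.5wk and 0 to 0 in cKO. The animal number series could not be fitted as a term for AAV_1E14_2.5wk vs cKO, where no series held animals of both groups. The causes of these shifts were not tested.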
